A study of Mus musculus with 2 samples.

Results

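The 10 genes described here are 9 genes for secreted matrix proteins that are textbook products of connective tissue cells, and the gene of the filament protein vimentin: Mgp, Dcn, Sparc, Sparcl1, Cpxm1, Prg4, Bgn, Lum, Fbln1 and Vim. They were chosen by symbol from a list drawn up with their values in these data already known, so their values are a description and no test of the choice. All 10 were found among the 15113 genes listed in at least 1 of the libraries. RNA sequencing was done on 2 libraries of sorted mouse lung epithelial cells, 1 per group. The tumour-bearing group consisted of C57BL/6 mice aged 6 to 8 weeks that received 1000000 LLC cells carrying luciferase under the skin of the back, a model in which the tumour spreads to the lung spontaneously. LLC, or Lewis lung carcinoma, is a lung cancer line of the mouse. The library of this group is called the tumour-mouse library here (tumour-bearing in the plots), and paired values give the control first. The control group consisted of wild-type C57BL/6 mice of the same age range without a tumour. In both groups the sort kept cells without the leukocyte antigen CD45 and with surfactant protein C, a product of alveolar type 2 (AT2) cells. How many mice a library holds, and whether they were pooled, the sources used here do not say.

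The extracellular matrix of the lung is a network of collagen and elastic fibres, and several proteins of this group coat, space or anchor those fibres. Decorin, biglycan and lumican are small leucine-rich proteoglycans, in which a curved leucine-rich protein binds collagen and carries glycosaminoglycan chains. SPARC and SPARC-like 1 are matricellular proteins, which regulate how cells meet the matrix more than they build it. In the lung these genes are best known from fibroblasts, smooth muscle, pericytes, mesothelium and vessel endothelium, and several of them are read in more than 1 of these cell types.

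Every one of the 10 genes had a higher level in the tumour-mouse library. So had 6612 of the 12288 genes that reached 1 RPKM in either library. On the scale log2((tumour-mouse RPKM + 1)/(control RPKM + 1)), where RPKM is the read count scaled by gene length and library size, 9 of 10 were at least 2-fold higher, 0 were at least 2-fold lower, and Sparc lay within 2-fold. Among the 12288 genes that reached 1 RPKM in either library, 9.38% passed 2-fold upwards and 6.53% downwards. At 1.5-fold all 10 genes were higher (19.4% of all genes compared), and at 4-fold 6 were (1.66%). With a pseudocount of 5 in place of 1, 7 of 10 passed 2-fold (3.01%), while 8 of the 10 genes are among the 8645 genes at 5 RPKM or more, and 7 of these 8 passed it with a pseudocount of 1 (7.95%). By the interval of the direct ratio, 8 of 10 lay wholly above 2-fold, as did 6.26% of the 12255 genes compared that had recovered reads. Because the genes were proposed from this same contrast, nothing is read from setting their counts beside those shares. The median log2 ratio was 2.69 over the 10 genes and 0.06 over all genes compared. All 10 passed the filter of 1 RPKM, but Cpxm1, Prg4 and Lum passed it only through the tumour-mouse library. The other 7 had a median log2 ratio of 2.05, with 6 at least 2-fold higher. The share of all genes under a filter on the control alone was not computed, so nothing is read from this count. With 1 library per group there is no replicate check and no p-value, and each interval below is an exact 95% interval for counting error alone.

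**Figure D1:**
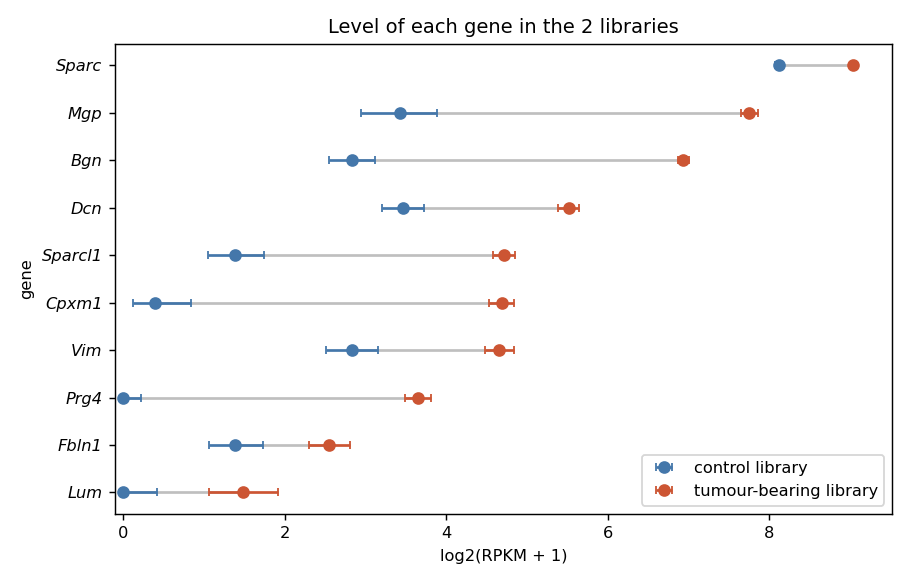
Level of each of the 10 genes as log2(RPKM + 1) in the control library (blue) and the tumour-mouse library (red), with exact 95% Poisson counting intervals as bars. Each red point lies to the right of its blue point, from Sparc at 277 and 523 RPKM to Lum at 0 and 1.79 RPKM.

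The libraries differed little in size, and the deposited values corresponded to 5335352 reads in the control and 5387114 reads in the tumour-mouse library. Whether the authors counted single reads or read pairs is not known, and the counted unit is called a read throughout. Sftpc, the gene of the positive gate, had 94902 and 54968 RPKM in these libraries, and Ptprc, which encodes CD45, had 12 and 2 reads. Summed RPKM of 8 pan-epithelial genes was 1411 in the control, against 1620 in the tumour-mouse library, and none of the 8 differed by 2-fold. Marker lists of fibroblasts, mural cells, endothelium and mesothelium had higher sums in the tumour-mouse library, and their values are given after those of the 10 genes. In bulk RNA, more cells of a type and more RNA per cell cannot be told apart.

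The stretch of genome around the start of each gene is where transcription factors and the polymerase assemble, and it is shown here so that genes with a high ratio (Cpxm1, Bgn), a middling one (Vim) and the lowest (Sparc) can be set side by side; the motifs and the windows shown were chosen after the values were seen. RefSeq windows from 250 bases before to 50 bases after the annotated start (GRCm38.p6) were found for 5 of the 10 genes, namely Bgn, Cpxm1, Fbln1, Sparc and Vim. The windows of Cpxm1 (chr2:130397580-130397879, minus strand), Bgn (chrX:73483351-73483650, plus strand), Vim (chr2:13574061-13574360, plus strand) and Sparc (chr11:55420031-55420330, minus strand) are printed 5′ to 3′ along the gene. Capitals mark matches, on either strand, to TATAAA (the TATA box), CCAAT (the CCAAT box), GGGCGG (the GC box) or TGACTCA (an AP-1 element).
Cpxm1: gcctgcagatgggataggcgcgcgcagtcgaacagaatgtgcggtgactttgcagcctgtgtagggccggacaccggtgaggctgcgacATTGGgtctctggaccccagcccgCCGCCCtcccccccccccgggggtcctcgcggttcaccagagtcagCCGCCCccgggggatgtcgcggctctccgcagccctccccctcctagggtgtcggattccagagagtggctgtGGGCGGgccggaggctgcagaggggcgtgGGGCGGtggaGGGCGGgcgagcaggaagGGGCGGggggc
Bgn: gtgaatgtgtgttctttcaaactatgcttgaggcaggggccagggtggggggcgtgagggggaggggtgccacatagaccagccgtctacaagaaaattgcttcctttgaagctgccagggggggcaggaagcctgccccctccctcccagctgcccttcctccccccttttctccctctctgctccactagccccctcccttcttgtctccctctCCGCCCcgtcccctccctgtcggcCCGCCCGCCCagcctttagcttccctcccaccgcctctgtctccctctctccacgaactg
Vim: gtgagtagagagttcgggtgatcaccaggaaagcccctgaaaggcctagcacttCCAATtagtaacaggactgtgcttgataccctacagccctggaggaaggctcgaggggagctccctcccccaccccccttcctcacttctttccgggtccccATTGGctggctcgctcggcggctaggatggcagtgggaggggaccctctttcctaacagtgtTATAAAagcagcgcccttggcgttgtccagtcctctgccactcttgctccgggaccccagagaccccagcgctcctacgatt
Sparc: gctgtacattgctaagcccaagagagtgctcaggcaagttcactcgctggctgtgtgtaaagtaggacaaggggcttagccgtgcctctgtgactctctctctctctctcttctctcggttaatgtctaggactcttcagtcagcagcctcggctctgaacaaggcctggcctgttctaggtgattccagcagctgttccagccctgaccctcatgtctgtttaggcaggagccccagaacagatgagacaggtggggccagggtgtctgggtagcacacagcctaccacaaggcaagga
Cpxm1 held 6 GC boxes and 1 CCAAT box, and Bgn held 3 GC boxes, of which 2 share bases. Vim held 1 TATA box that begins 32 bases before the annotated start, with 2 CCAAT boxes upstream of it. Sparc had no match to any of the 4 motifs in its window. Among 27025 RefSeq windows of the same length, taking the first window of each gene, 35.9% held a GC box, 37.9% a CCAAT box, 14.2% a TATA box and 5.17% the AP-1 element. The GC content was 72.7% for Cpxm1, 63.7% for Bgn, 59.3% for Vim and 55.3% for Sparc, against a median of 52.7% over all windows. The first window of Fbln1, not printed, had 51.7% GC and no motif match, and its other window had 64.0% GC and 2 GC boxes. CpG dinucleotides numbered 26 in Cpxm1, 9 in Bgn, 11 in Vim and 4 in Sparc. These matches describe letters in a window and do not show that a factor bound there.

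Of the 3 small leucine-rich proteoglycan genes among the 10, Bgn was the most abundant in the tumour-mouse library and Dcn in the control library. Bgn (GeneID 12111, chromosome X, 73483601 to 73495936) encodes biglycan, which binds collagen and can also act as a danger signal at Toll-like receptors. It was at 6.12 RPKM in the control library, from 78 reads, against 121 RPKM in the tumour-mouse library, from 1560 reads. The direct ratio was 19.8, with an interval of 15.8 to 25.2. Dcn (GeneID 13179, chromosome 10, 97479500 to 97518163) encodes decorin, which limits collagen fibril thickness and binds TGF-beta. It was at 10.0 RPKM in the control library, against 44.7 RPKM in the tumour-mouse library, from 101 and 454 reads. Its ratio of 4.45 (3.58 to 5.58) was thus smaller than that of Bgn, and the intervals did not overlap. Bgn stood at 0.610 times the level of Dcn in the control library and at 2.71 times its level in the tumour-mouse library, so the order of this pair was opposite in the 2 libraries.

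Lum (GeneID 17022, chromosome 10, 97565501 to 97572703) encodes lumican, a keratan sulfate proteoglycan of collagen fibrils, and lies next to Dcn on the chromosome. It was the least abundant of the 10 genes in the tumour-mouse library, at 1.79 RPKM from 20 reads, and had 0 reads in the control library. With the control set at 3 reads (0.271 RPKM), Lum was 6.60-fold higher, and the exact interval of the ratio begins at 4.89. In the tumour-mouse library Dcn was 25 times as abundant as its neighbour.

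Other genes of the leucine-rich proteoglycan family were mixed in direction. Of 14 such genes, 5 reached 1 RPKM in at least 1 library, with 1 at least 2-fold higher, 1 at least 2-fold lower and a median log2 ratio of -0.14. Ogn, encoding osteoglycin (mimecan), was the higher one, at 0.295 and 3.22 RPKM, from 4 and 44 reads. Chad, encoding chondroadherin, a cell-binding protein of cartilage matrix, was the lower one, at 14.9 and 5.61 RPKM. Podn, encoding podocan, was at 4.42 and 2.80 RPKM. Prelp, whose product anchors basement membranes to collagen, was at 3.17 and 2.78 RPKM, with an interval of the ratio from 0.596 to 1.29. Tsku, encoding the secreted signalling modulator tsukushi, was at 7.27 and 14.3 RPKM, just within 2-fold on the log2(RPKM + 1) scale. The summed RPKM of the 14 genes was 31.1 in the control, against 29.0 in the tumour-mouse library.

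Sparc was the most abundant of the 10 genes in both libraries and the only one within 2-fold. Sparc (GeneID 20692, chromosome 11, 55394159 to 55420080) encodes a calcium- and collagen-binding glycoprotein that loosens cell attachment and assists collagen assembly. It was at 277 RPKM in the control library, from 3400 reads, where it ranked 185th of all genes by RPKM. It was at 523 RPKM in the tumour-mouse library, from 6479 reads, where it ranked 86th. The ratio of 1.89 had an interval of 1.81 to 1.97, which lies below 2. Its gain of 246 RPKM was nevertheless the largest of the 10 genes in absolute terms, ahead of Mgp with 205 RPKM and Bgn with 115 RPKM.

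Sparc is usually listed with stromal genes, and how far above the stromal markers it stood in the control library differed by marker. The fibroblast markers Inmt and Serpinf1 were at 16.3 and 15.8 RPKM there, and the endothelial marker Esam at 68.1 RPKM. Col1a1, a collagen gene that marks fibroblasts, was at 1.27 RPKM there, so Sparc was 218 times as abundant, against 13.6 times in the tumour-mouse library. Dcn was 7.88 times as abundant as Col1a1 in the control and 1.16 times in the tumour-mouse library. For Mgp the values were 7.67 and 5.57. These ratios between genes were chosen after the values were seen, and in which cells Sparc was read was not tested.

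Sparcl1 (GeneID 13602, chromosome 5, 104079108 to 104114088) encodes SPARC-like 1 or hevin, an anti-adhesive relative of SPARC that is common in vessel walls. It was at 1.62 RPKM from 27 reads in the control library, against 25.2 RPKM from 425 reads in the tumour-mouse library. Its ratio of 15.6 (10.6 to 23.9) lay far above that of Sparc. Sparc was therefore 172 times as abundant as Sparcl1 in the control library and 20.8 times in the tumour-mouse library. An antisense gene of GENCODE M21 overlaps Sparcl1 without sharing exon bases with it.

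Of 6 other genes of the SPARC family, 3 reached 1 RPKM, and 2 of these passed 2-fold upwards. The median log2 ratio of the 3 was 2.39, and without the filter the median of the listed genes was 1.34. Fstl1, encoding the secreted follistatin-like 1, was at 1.82 and 13.8 RPKM, a ratio of 7.58 (5.32 to 11.1). Spock2, encoding testican-2, was at 11.7 and 82.7 RPKM. Spock2 is also a marker of alveolar type 1 (AT1) cells, whose marker list had summed RPKM of 1800 in the control, against 2919 in the tumour-mouse library. Smoc2, another calcium-binding matricellular protein gene, was lower, at 9.53 and 5.51 RPKM.

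**Figure D2:**
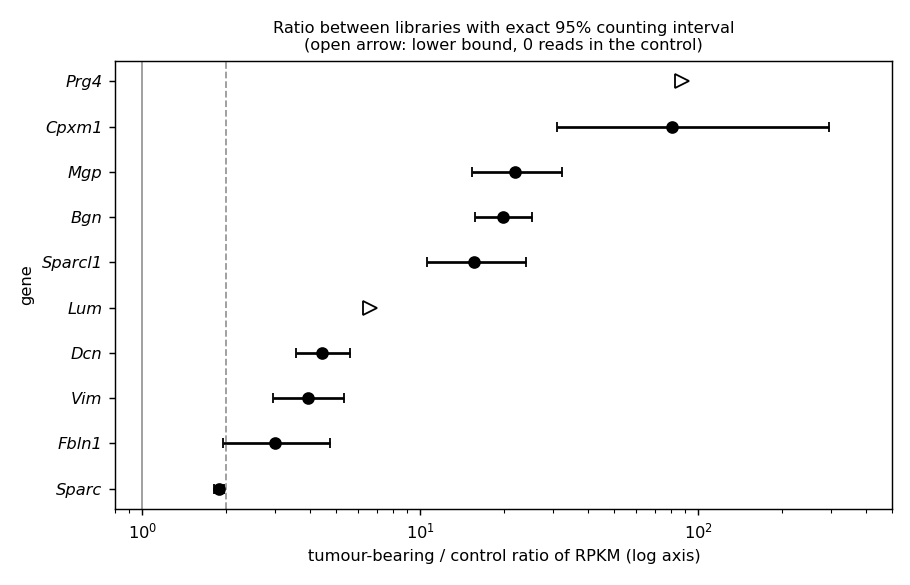
Direct ratio of RPKM, tumour-bearing over control, on a log axis for each of the 10 genes, with exact 95% counting intervals. The solid line marks a ratio of 1 and the dashed line 2. Open arrows, without intervals, mark Prg4 (87.8) and Lum (6.60), which had 0 reads in the control. They stand at the ratio to 3 control reads, which the plot calls a lower bound. The exact 95% intervals of Prg4 and Lum begin lower, at 70.9 and 4.89. Sparc at 1.89 is the only point left of the dashed line.

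With a pseudocount of 1, Mgp and Cpxm1 had the highest log2 ratios of the 10 genes. The order depends on the pseudocount, since with 0.1 Prg4 (6.86) and Cpxm1 (5.93) lay above Mgp (4.44), and with 5 Mgp (3.89) and Bgn (3.50) lay above Cpxm1 (2.48). Mgp (GeneID 17313, chromosome 6, 136872435 to 136875823) encodes matrix Gla protein, a small vitamin K-dependent inhibitor of tissue calcification. It was at 9.77 RPKM from 32 reads in the control library, against 214 RPKM from 709 reads in the tumour-mouse library, a ratio of 21.9 (15.4 to 32.3). By RPKM it ranked 5537th in the control and 276th in the tumour-mouse library, and its log2 ratio of 4.32 was the 9th highest of the 12288 genes. Sparc was 28.4 times as abundant as Mgp in the control and 2.44 times in the tumour-mouse library.

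Mgp works only after vitamin K-dependent carboxylation, and most genes of that step and of other Gla proteins lay within 2-fold. Of 11 such genes 9 were compared, with 0 at least 2-fold higher, 1 at least 2-fold lower and a median log2 ratio of 0.05, which was -0.02 under upper-quartile scaling. Ggcx, the carboxylase itself, was at 67.4 and 42.3 RPKM. Vkorc1, the vitamin K epoxide reductase targeted by warfarin, was at 29.2 and 11.4 RPKM, while its paralog Vkorc1l1 was at 8.25 and 16.0 RPKM. Prrg2, a gene for a membrane Gla protein, was at 12.6 and 18.1 RPKM.

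Cpxm1 (GeneID 56264, chromosome 2, 130390775 to 130397629), whose GC-rich start is shown above, encodes a secreted protein of the carboxypeptidase family that binds collagen and lacks measurable enzyme activity. It was at 0.308 RPKM from 4 reads in the control library, against 24.7 RPKM from 324 reads in the tumour-mouse library. The ratio was 80.2, with a wide interval of 31.0 to 296 because of the 4 control reads. Its log2 ratio of 4.30 was the 10th highest of all genes compared. Aebp1, the related collagen-binding carboxypeptidase-like protein gene, was at 12.5 and 32.2 RPKM. Cpm, a membrane carboxypeptidase gene, was far more abundant and had the opposite direction, at 276 and 88.2 RPKM, 3.13-fold lower. Of 7 relatives of Cpxm1, 6 were compared, with 3 at least 2-fold higher, 1 at least 2-fold lower and a median log2 ratio of 0.83, which was 0.37 without the filter and -0.29 among those at 5 RPKM or more. The 3 higher were Aebp1, Cpe and Cpz, with Cpe at 4 and 48 reads and Cpz at 0 and 26 reads. Cpe and Cpz passed the filter only through the tumour-mouse library.

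Fbln1 (GeneID 14114, chromosome 15, 85205949 to 85286294) encodes fibulin 1, which links fibronectin, laminin and elastic fibres. It was at 1.62 RPKM from 29 reads in the control library, against 4.86 RPKM from 88 reads in the tumour-mouse library. The ratio of 3.01 had an interval of 1.96 to 4.74, so at this depth a ratio below 2 lay within counting error. Its log2 ratio of 1.16 was the smallest among the 9 genes at least 2-fold higher. Fbln1 was below the level of Fbln2, its closest relative, in the tumour-mouse library and above it in the control.

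Among 14 other fibulin and elastic fibre genes, 10 were compared, with 7 at least 2-fold higher, 1 at least 2-fold lower and a median log2 ratio of 2.10. Of the 7 higher, 5 passed the filter only through the tumour-mouse library, and without the filter the median was 1.19. Fbln2 was at 0.0419 RPKM from 1 read and 16.5 RPKM from 398 reads, a ratio of 394 with an interval of 70.3 to 15608. Eln, encoding elastin, was at 1.78 and 24.7 RPKM, a ratio of 13.8 (9.86 to 20). Fbn1, encoding fibrillin 1 of the microfibril scaffold, was at 0.398 and 8.06 RPKM, and Emilin1, an elastic fibre interface protein gene, at 0.324 and 7.50 RPKM. Mfap2, a microfibril-associated protein gene, had 0 and 37 reads and was 12.2-fold higher with the control set at 3 reads. The lower gene was Efemp1 (fibulin 3), at 45.8 and 19.5 RPKM, a ratio of 0.426. Fibulins thus differed in direction within the family.

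Prg4 (GeneID 96875, chromosome 1, 150449412 to 150466221) encodes lubricin, the mucin-like proteoglycan that lubricates joints and other surfaces. It had 0 reads in the control library and 266 reads, or 11.5 RPKM, in the tumour-mouse library. With the control set at 3 reads (0.131 RPKM) it was 87.8-fold higher, and the exact interval of the ratio begins at 70.9. Exons of Prg4 share 204 bases with exons of Tpr on the opposite strand, and the sources used here do not state whether the authors' counting used strand. Tpr, a nuclear pore gene, was at 16.7 and 19.4 RPKM, from 671 and 790 reads.

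Vim (GeneID 22352, chromosome 2, 13574311 to 13582826) encodes vimentin, the intermediate filament of mesenchymal cells and the one protein here that is not secreted into the matrix. It was at 6.13 RPKM from 60 reads in the control library, against 24.2 RPKM from 239 reads in the tumour-mouse library, a ratio of 3.95 (2.96 to 5.33). Its interval overlapped that of Dcn and lay below those of Mgp, Bgn and Sparcl1. Other non-keratin filament genes were low in both libraries. Of 9 such genes 3 reached 1 RPKM, and all 3 lay within 2-fold: Des (desmin, of muscle cells) at 24 and 41 reads, Nes (nestin) at 37 and 37 reads, and Synm (synemin) at 96 and 59 reads.

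Of 45 pairs of the 10 genes, 29 had intervals of the ratio that did not overlap. The matching share over pairs of all genes was not computed, so nothing is read from this count. By log2 ratio 5 of the 10 genes, Mgp, Cpxm1, Bgn, Prg4 and Sparcl1, stood among the highest 1% of all genes compared. Dcn, Vim and Lum stood lower, with 1.54%, 2.17% and 3.96% of genes above them. Above Fbln1 were 6.76% of genes and above Sparc 10.7%. The summed RPKM of the 10 genes was 313 in the control, against 996 in the tumour-mouse library, a ratio of 3.18. Sparc supplied 88.6% of that sum in the control and 52.5% in the tumour-mouse library, and without it the sums were 35.6 and 473 RPKM, a ratio of 13.3.

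**Figure D3:**
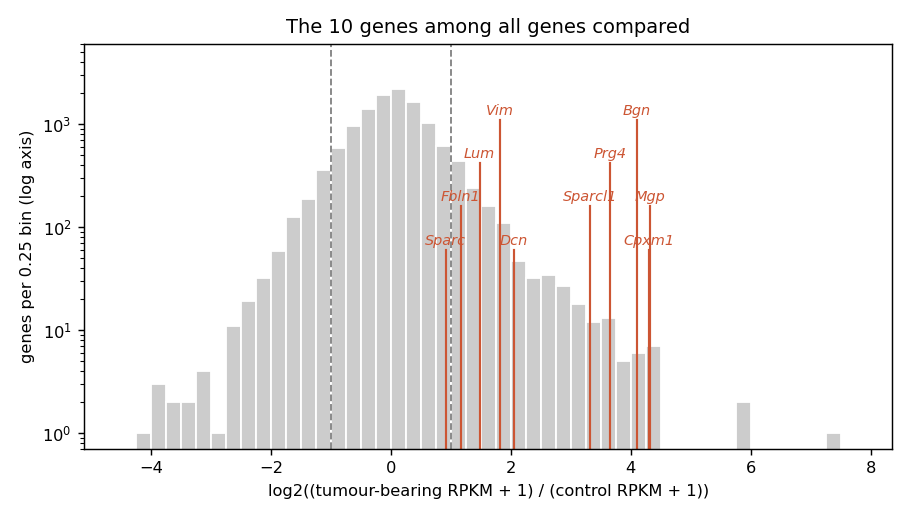
Histogram of the log2 ratio of RPKM + 1 for all 12288 genes compared, with the number of genes per bin on a log axis and the 10 genes marked in red at their own log2 ratio (line heights carry no value). Dashed lines mark 2-fold. All 10 genes lie above 0, from Sparc at 0.91 to Mgp at 4.32, as do 6612 of all genes compared.

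Several proteins of this group bind collagens, and most of the collagen genes they bind were higher as well. All 10 collagen genes of the list had log2 ratios above 0 and a median of 2.64, and 8 of them passed 2-fold, 3 of which passed the filter only through the tumour-mouse library. Col5a2, a chain of the collagen that starts fibrils, was at 0.737 and 12.4 RPKM, a ratio of 16.8 (11.3 to 26.1). Col1a1, Col1a2 and Col3a1 were at 1.27, 1.06 and 2.66 RPKM in the control and at 38.5, 41.8 and 73.5 RPKM in the tumour-mouse library. Col6a1 and Col6a2, chains of the beaded filament collagen to which decorin and biglycan bind, were named after their values were seen. Like Sparc, they were already abundant in the control, at 121 and 27.3 RPKM, and had ratios of 3.13 (3 to 3.28) and 4.72 (4.30 to 5.18).

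Receptors through which these proteins are known to signal lay mostly within 2-fold on the log2(RPKM + 1) scale. By direct ratio Tlr4 was 2.11-fold lower and Tlr2, named after its values were seen, 2.36-fold lower. Of 7 receptor genes 6 were compared, 1 was at least 2-fold higher, 5 lay within 2-fold with log2 ratios below 0, and the median log2 ratio was -0.71. Tlr4, a receptor of biglycan, was at 7.84 and 3.72 RPKM, and Met, a receptor that decorin binds, at 54.7 and 30.8 RPKM. Kdr, the main VEGF receptor, was at 6.41 and 3.40 RPKM. Egfr, another receptor that decorin binds, was the higher one, at 2.47 and 6.08 RPKM, a ratio of 2.46 (1.88 to 3.23).

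The enzymes that build glycosaminoglycan chains on decorin and biglycan were mostly within 2-fold. Of 16 genes 14 were compared, with 4 at least 2-fold higher, 0 lower and a median log2 ratio of 0.60. Of these 4, 1 passed the filter only through the tumour-mouse library, and the median was 0.23 with a pseudocount of 5. B4galt7, which adds the first galactose of the linker, was at 1.83 and 6.81 RPKM. Chpf2, a chondroitin polymerising factor, was at 5.48 and 15.1 RPKM. Csgalnact2, which starts chondroitin chains, was at 28.4 and 61.0 RPKM, while the chondroitin synthase Chsy1 was at 54.5 and 29.4 RPKM. Large proteoglycans and hyaluronan genes were low, with 5 of 12 compared, 3 of them at least 2-fold higher and a median log2 ratio of 1.03. Of these 3, 2 passed the filter only through the tumour-mouse library, and the median was 0.26 without the filter and 0.45 at 5 RPKM or more. Srgn, encoding the secretory granule proteoglycan serglycin, had 12 and 30 reads, and Bcan, encoding brevican, 106 and 97. Vcan, encoding versican and named after its values were seen, had 140 reads against 0 in the control. It was 46.2-fold higher with the control set at 3 reads.

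**Figure D4:**
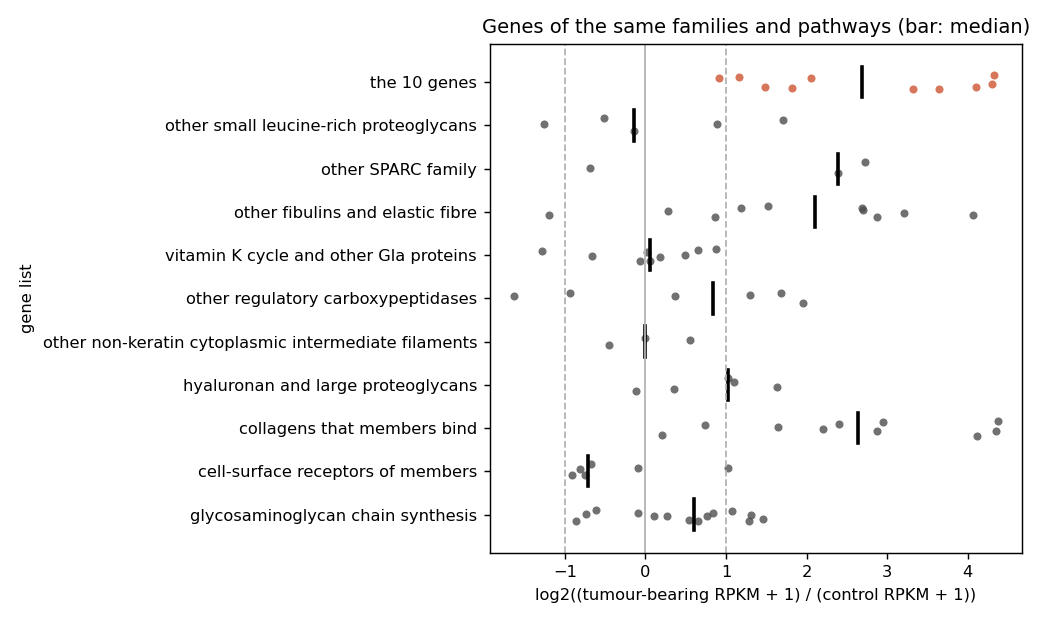
Log2 ratio of RPKM + 1 for the 10 genes (red) and for the compared genes of each family or pathway list (grey), with black bars at the medians and dashed lines at 2-fold; vertical scatter within a row carries no value. Among genes that passed the filter, collagens and elastic fibre genes have medians of 2.64 and 2.10 beside the 2.69 of the 10 genes (1.19 for elastic fibre genes without the filter), while other leucine-rich proteoglycans and Gla protein genes have medians of -0.14 and 0.05.

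Summed markers of the cell types in which these genes are best known were higher in the same library. The fibroblast list of 16 genes, which holds none of the 10, had a summed RPKM of 43.6 in the control, against 248 in the tumour-mouse library, a ratio of 5.69. Most of the tumour-mouse sum came from Col1a1, Col1a2 and Col3a1, at 38.5, 41.8 and 73.5 RPKM there. These collagen genes also stand in the collagen list above, so the lists overlap. Most of the control sum came from Inmt and Serpinf1, at 16.3 and 15.8 RPKM, against 30.7 and 35.7 RPKM in the tumour-mouse library. Of 11 fibroblast genes compared, 7 passed 2-fold upwards, and the log2 ratio exceeded 0 in all 11, of which 4 passed the filter only through the tumour-mouse library. Pdgfra, a receptor that defines lung fibroblasts, was at 0.228 and 9.35 RPKM, from 8 and 331 reads. In the control library 5 of the 16 were at 0, namely Tcf21, Pi16, Fap, Thy1 and Ebf1. In the tumour-mouse library none was at 0, but Tcf21 and Pi16 had 2 reads each and Ebf1 had 1 read, while Thy1 had 34.

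The smooth muscle and pericyte list of 11 genes had sums of 4.68 and 16.4 RPKM. Its defining genes Acta2, Myh11, Cnn1, Cspg4, Rgs5 and Actg2 were at 0 in the control library. In the tumour-mouse library Actg2 was at 0, and Acta2, Cnn1, Rgs5 and Cspg4 had 3, 3, 2 and 1 reads. Myh11 had 16 reads there, and Tagln, a gene for an actin-binding protein of smooth muscle, had 1 read in the control and 27 in the other library. Pdgfrb, the pericyte and fibroblast receptor, was at 0.346 and 6.55 RPKM. Of the 4 genes of this list compared, Tagln and Pdgfrb were at least 2-fold higher. Both passed the filter only through the tumour-mouse library. Des and Notch3 lay within 2-fold, with Notch3 at 54 and 48 reads, and Lmod1 had 18 reads in each library.

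Endothelial markers, of cells known to express Mgp, Sparc, Sparcl1 and Vim, had sums of 123 and 289 RPKM over 17 genes, a ratio of 2.35. All 17 were read in both libraries, 13 were at least 2-fold higher and 15 had a log2 ratio above 0, and 5 of the 13 passed the filter only through the tumour-mouse library. Gpihbp1, a capillary gene, had 1 read in the control, against 97 in the tumour-mouse library, and Lyve1, a lymphatic gene, was at 1.80 and 27.3 RPKM. Kdr and Tek, receptor genes of endothelium, had ratios below 1, at 6.41 and 3.40 RPKM and at 3.71 and 3.15 RPKM. Esam, an adhesion gene at 68.1 and 71.8 RPKM, made up most of the control sum, and without it the sums were 54.6 and 217 RPKM, a ratio of 3.97. The mesothelial list of 7 genes had sums of 3.85 and 21 RPKM. Most of this was Msln, encoding mesothelin, at 1.49 and 16.6 RPKM. Of the other mesothelial genes Lrrn4 and Bnc1 were at 0 in both libraries, Upk3b and Nkain4 were at 0 in the control, and Wt1 had 4 and 2 reads.

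Pan-leukocyte and AT2 sums were lower in the tumour-mouse library, and the macrophage sum was higher. The 10 pan-leukocyte genes summed to 89.0 RPKM in the control, against 55.0 RPKM in the tumour-mouse library, of which Lcp1 alone made up 82.7 and 50.3 RPKM. Cd52 was at 0 in both libraries, Fcer1g at 0 in the control, and Itgb2 and Cd48 at 0 in the tumour-mouse library. The 10 macrophage genes summed to 68.1 and 166 RPKM, of which Cd14 made up 53.1 and 115 RPKM and Cd68 7.81 and 31.5 RPKM, and the other 8 summed to 7.18 and 19.0 RPKM. In this list Marco, Adgre1 and Mrc1 were at 0 in both libraries, C1qb and C1qc at 0 in the control, and Chil3 at 0 in the tumour-mouse library. The 13 AT2 genes summed to 149496 and 100670 RPKM. The lower sum came from Sftpc and from Lyz2, at 21565 and 11436 RPKM, and the other 11 genes summed to 33029 and 34266 RPKM. These 11 genes were mixed in direction, so their sum does not show that each was unchanged. Sftpd was higher, at 3633 and 7410 RPKM. Cxcl15 was lower, at 3914 and 2068 RPKM, as were Lamp3, at 1116 and 570 RPKM, and Etv5, at 341 and 162 RPKM. Among all 13 AT2 genes, 4 had a log2 ratio above 0, and the median was -0.21. Inmt, Serpinf1, Notch3, Lmod1, Kdr, Tek, Esam and Lyz2 were named after their values were seen. The part of any of these cell types in the levels of the 10 genes was not tested.

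**Figure D5:**
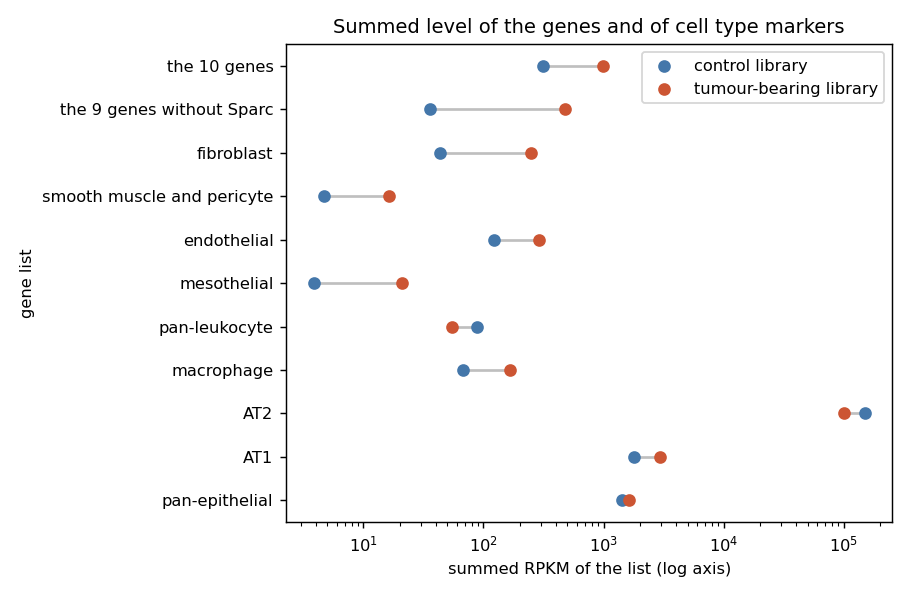
Summed RPKM, on a log axis, of the 10 genes, of the 9 genes without Sparc and of each cell type marker list, in the control library (blue) and the tumour-mouse library (red). The 9 genes without Sparc go from 35.6 to 473 RPKM, the fibroblast list from 43.6 to 248 RPKM and the endothelial list from 123 to 289 RPKM, while AT2 and pan-leukocyte sums are lower in the tumour-mouse library.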

How the data were processed

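Lung cells of a tumour-bearing and a normal group were sorted as CD45-negative and surfactant protein C-positive, and 1 library per group was made after DNase treatment, oligo(dT) selection and fragmentation, per the labels' protocols. The authors deposited 1 RPKM value per gene, per the file headers. Trimmomatic and mm10 were used, per the submitters' processing notes. The aligner, counter, annotation and strand setting: not given in the sources used here. Members, gene lists and size rule were chosen with earlier results of these data known.

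RPKM values were compared as deposited, with a pseudocount of 1, a filter of 1 RPKM in at least 1 library and a size rule of 2-fold. A gene absent from 1 table was set to 0. Read totals were the largest at which each of the last 250 rows, taken as 1 read, had a whole gene length. Reads per gene followed from reads/length in lowest terms and the row order, for 15069 of 15113 genes (99.7%). The first 20 rows of each table were left without reads, since their multiple could not be settled. This use of neighbouring rows replaced, after the data were seen, a stricter use of the row order that settled few genes, and the row order is therefore no independent check of the reads. The totals rest on the lowest rows holding 1 read and are not stated by the authors. Intervals are exact: conditional binomial for ratios, Poisson for levels. A gene at 0 reads in 1 library was set at 3 reads there for its fold value. Reads without molecular identifiers are not independent molecules, so intervals cover counting error only.

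Named were all 10 genes, 5 lists of relatives, and per other list up to 4 genes that changed most in log2 ratio, either way, among those reaching 5 RPKM. Markers at 0 or near it, and those that carry a sum, were named as well. Some genes stand in 2 lists. Coordinates and windows are from RefSeq (GRCm38.p6, the assembly that mm10 denotes), and exon overlaps from GENCODE M21. Python 3.11.15, NumPy 2.4.6, pandas 2.3.3 and SciPy 1.17.1 were used, and the procedure was tested on simulated data.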

Additional observations from a re-analysis of the deposited data

How the results depend on the processing

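All 10 genes kept a log2 ratio above 0 under each scaling, pseudocount and read-based value tried. As deposited, 6612 of the 12288 genes compared had a log2 ratio above 0. The 4 scalings moved the median of all genes by at most 0.06. Under every scaling 9 of the 10 genes were at least 2-fold higher. Of all genes, 1026 to 1077 were higher by that size under these scalings and 847 to 883 lower. The number was 7 of 10 with a pseudocount of 5, and 7 of the 8 left among genes at 5 RPKM or more. The median log2 ratio of the 10 genes was 4.06 with a pseudocount of 0.1, 1.73 with 5 and 3.49 among genes at 5 RPKM or more. In alternatives chosen after seeing the data, it was 4.12 on reads with 0.5 added and 3.32 without Sparc. On the direct ratio, with the control of Prg4 and Lum set at 3 reads, it was 3.34. Low genes depended most on the pseudocount, with Prg4 at 6.86 with 0.1 and 1.73 with 5, Cpxm1 at 5.93 and 2.48, Lum at 4.24 and 0.44, and Fbln1 at 0.58 with 5. As reported, 1153 genes of all were at least 2-fold higher and 802 lower by that size. With a pseudocount of 0.1 they were 1539 higher and 1247 lower. The numbers were 370 and 190 with a pseudocount of 5, 687 and 419 with a filter at 5 RPKM, 2383 and 1978 at 1.5-fold, and 204 and 75 at 4-fold. No paired analysis was possible because each group holds 1 library, and for the same reason no library could be left out.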
